A study of Homo sapiens with 4 samples.

Results

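The 10 genes described here encode enzymes that build the linker of glycosaminoglycan chains and the heparan sulfate chain that grows on it: GLCE, PXYLP1, EXT1, EXT2, XYLT1, XYLT2, B3GAT3, NDST1, HS2ST1 and HS6ST1. They were taken as the array features whose annotation names exactly 1 gene with one of these symbols, averaged per gene, and all 10 were measured, by 16 of 45220 features, among 18334 genes in all. GLCE and PXYLP1 were selected on the measured log ratios, which were low on all 4 arrays, so their values are a description with no test. The other 8 were taken for their function. The samples were HEK293T cells, a human embryonic kidney line carrying the SV40 large T antigen, transfected with plasmids that express a CHD6 siRNA, against the same line with plasmids that express a control siRNA. CHD6 is a chromatin remodeler of the chromodomain helicase family. RNA was taken at 48 h, and each of the 4 arrays compared 1 sample of either kind directly. Cy3 labelled the siRNA sample on replicates 1 and 3, and Hy5 labelled it on replicates 2 and 4, so a value called in Cy3 or in Hy5 below is 1 with that dye on the siRNA sample.

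Heparan sulfate is a long sulfated sugar chain attached to core proteins of the cell surface and matrix, where it binds growth factors, morphogens and their receptors. Synthesis starts with a xylose on a serine of the core protein, continues through galactoses and a glucuronic acid to complete the linker, and then either heparan sulfate or chondroitin sulfate is polymerised on it. In heparan sulfate, the growing chain is trimmed of acetyl groups and sulfated on nitrogen, some glucuronic acid is epimerised to iduronic acid, and further sulfates are added to the sugar rings. Loss of EXT1 or EXT2 function in people causes multiple exostoses, a bone disorder of this pathway.

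All log ratios below are read as CHD6 siRNA over control, in log2, an assumed base. The direction is likely and not settled: every array's title puts the siRNA before the control, but arrays of opposite dye orientation ran against each other across features (Pearson r from -0.835 to -0.685), and arrays of the same orientation ran together (0.796 and 0.790). If the columns are instead Hy5 over Cy3, replicates 1 and 3 change sign, and values under that reading are called turned by dye below. CHD6 itself was at -0.42, -0.43, -0.28 and -0.65 on replicates 1 to 4 as a mean of 3 features, below 0 on every array, and would be at -0.095 turned by dye. Of its features, 27564 was at -1.13, -1.21, -0.85 and -1.42 on replicates 1 to 4. Its mean was -1.15 (limma adjusted p over all features = 0.0339), and turned by dye it would be at -0.16. The others, 1672 and 36130, had means of -0.015 and -0.17 (adjusted p = 0.984 and 0.805). The values are ratios within an array, so they give no level of any gene in either condition, the markers of HEK293T cells could not be examined, and less RNA per cell cannot be told apart from fewer cells of a kind. Whether the replicates were separate cultures is not in the labels. The p-values therefore cover only the differences among these 4 arrays, possibly technical ones.

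GLCE and PXYLP1 are shown first, with their promoters, because they were the lowest of the 10. Their promoter sequences are those of RefSeq (GRCh38.p14), 250 bases before to 50 after the gene's start, read on the gene's strand, which is + for both. The GLCE window lies at chr15:69160385-69160684 and that of PXYLP1 at chr3:141231575-141231874. Capitals mark GC boxes (GGGCGG on either strand, a binding sequence of SP-family factors) and, in GLCE, 1 CCAAT box (CCAAT on either strand), none of which overlap.
GLCE: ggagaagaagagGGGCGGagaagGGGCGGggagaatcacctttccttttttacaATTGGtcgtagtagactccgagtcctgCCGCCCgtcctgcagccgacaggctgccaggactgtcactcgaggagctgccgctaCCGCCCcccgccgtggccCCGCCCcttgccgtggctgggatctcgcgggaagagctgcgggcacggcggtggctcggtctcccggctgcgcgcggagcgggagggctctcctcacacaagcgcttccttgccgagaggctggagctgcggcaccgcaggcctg
PXYLP1: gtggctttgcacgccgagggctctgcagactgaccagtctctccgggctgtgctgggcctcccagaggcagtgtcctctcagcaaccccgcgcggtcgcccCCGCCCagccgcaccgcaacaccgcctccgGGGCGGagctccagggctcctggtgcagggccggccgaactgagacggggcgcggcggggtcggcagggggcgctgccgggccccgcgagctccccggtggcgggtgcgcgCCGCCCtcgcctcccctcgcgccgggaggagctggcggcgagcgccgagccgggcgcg
The GLCE window held 5 GC boxes and the PXYLP1 window 3. A GC box was present in 45.0% of all 35116 promoters of the table and a CCAAT box in 34.6%. TATAAA (11.5% of all promoters), CACGTG (7.26%) and CCGGAAG (10.3%), each searched on both strands, were not among the letters of either window. GC content was 68.7% for GLCE and 78.7% for PXYLP1, against a median of 58.7% over all promoters, and CpG dinucleotides numbered 29 and 40, against a median of 14. Of the 10 genes, 9 had an entry (EXT1 had none), and 8 of these held a GC box, taking the first of 3 entries for EXT2, which held none. The other EXT2 entries held 2 GC boxes each. Outside GLCE and PXYLP1, GC content ran from 56.3% (first EXT2 entry) to 79.7% (HS6ST1). CpG dinucleotides ran from 8 (NDST1) to 47 (HS6ST1), and HS6ST1 held 7 GC boxes. A promoter rich in GC was thus not particular to GLCE and PXYLP1.

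GLCE encodes the glucuronyl C5-epimerase, which turns glucuronic acid into iduronic acid within the heparan sulfate chain. Its log ratio was -0.65, -0.46, -0.33 and -0.82 on replicates 1 to 4. All arrays were below 0, with replicate 4 the lowest and replicate 3 the highest, and the dye orientations overlapped. The mean was -0.57 ± 0.21 (SD, n = 4), or 67.6% of control, and ranked 15 from the lowest of 18334 genes. Leaving out 1 replicate gave values from -0.66 to -0.48. Here and below, such a value comes from the fit with dye orientation. It is the average of the Cy3 mean and the Hy5 mean, not the plain mean of the arrays left. Turned by dye, GLCE would be at -0.075.

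PXYLP1 encodes the phosphatase that removes a phosphate from the xylose of the linker, a step coupled to completion of the linker. Its log ratio was -0.45, -0.37, -0.44 and -0.56 on replicates 1 to 4. These arrays lay close together and all below 0. The mean was -0.46 ± 0.079 (SD, n = 4), or 73.0% of control, and ranked 35 from the lowest. Turned by dye, it would be at -0.010. GLCE and PXYLP1 were each measured by 1 feature, so no second feature of the same gene was there to compare. A gene with 1 sign on all arrays is always nearer to 0 when turned than as read here, so the choice of GLCE and PXYLP1 fixes the order of these values. The lowest of the other 8 genes, EXT1, stood at -0.22, a gap of 0.23 above PXYLP1. Choosing GLCE and PXYLP1 for low log ratios made a gap in this direction likely, so it is a description only.

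**Figure D1:**
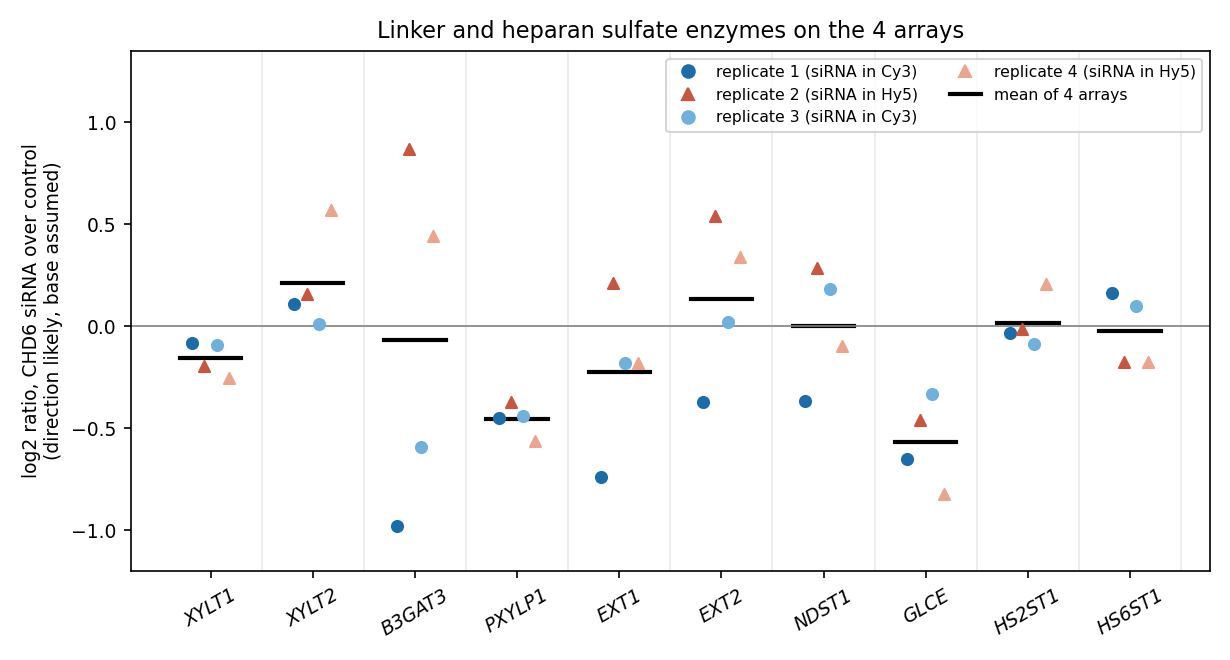
Log2 ratio (CHD6 siRNA over control, likely direction) of the 10 genes on each of the 4 arrays, ordered from linker to chain modification. Circles stand for Cy3 on the siRNA sample, triangles for Hy5 on it, and bars are means of 4 arrays. GLCE (-0.82 to -0.33) and PXYLP1 (-0.56 to -0.37) lie below 0 on all arrays, XYLT1 (-0.255 to -0.08) also lies below 0 and XYLT2 (0.01 to 0.57) above 0 on all arrays, and B3GAT3 splits by dye.

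None of the 8 other genes was called. In the fit across all genes with dye orientation as a coefficient (limma, Benjamini-Hochberg at 0.05), 0 of 8 passed (adjusted p from 0.488 to 0.994), where 4 of 18334 genes, or 0.0218%, passed in all, each of them lower, and 0 genes did so without any 1 replicate. With no dye coefficient, 0 of 8 and 0 of 18334 genes passed. At an unadjusted p under 0.05, 2 of the 8 were found, XYLT1 below 0 and XYLT2 above, against 9.37% of all genes in the dye fit (4.4% below and 4.97% above), and 0 of the 8 with no dye coefficient, against 1.32%. Over the 8, the 95% intervals of the ratio ran from 0.720 to 1.33 at their outermost bounds. The median of the 8 means was -0.0094 and that of all genes -0.0025. A p that misses the threshold does not show that these transcripts were equal in both conditions.

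The linker is begun by the xylosyltransferases XYLT1 and XYLT2, which transfer xylose to the core protein. XYLT1 was at -0.08, -0.195, -0.09 and -0.255 on replicates 1 to 4, below 0 on all arrays. XYLT2 was at 0.11, 0.16, 0.01 and 0.57, above 0 on all arrays but close to it on replicate 3. The means were -0.16 ± 0.085 for XYLT1 (limma adjusted p = 0.527) and 0.21 ± 0.25 for XYLT2 (SD, n = 4 each; adjusted p = 0.488). The 95% interval of the log ratio ran from -0.31 to -0.0032 for XYLT1 and from 0.017 to 0.41 for XYLT2. XYLT2 was at 0.11 without replicate 4. These 2 were the only ones of the 8 with 1 sign on all arrays. Over all genes, 7.06% had 1 sign on all 4 arrays, 3.50% below 0 and 3.56% above.

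B3GAT3, the glucuronyltransferase that adds the last sugar of the linker, followed the dye. With Cy3 on the siRNA sample it was at -0.98 and -0.59, and with Hy5 on it at 0.87 and 0.44, so the orientations did not overlap. Its mean was -0.065 ± 0.86 (SD, n = 4; adjusted p = 0.891). B3GAT3, as the average of its Cy3 and Hy5 means, was above 0 without replicate 1 (0.033) or replicate 4 (0.043). Turned by dye, it would be at 0.72, past the threshold (adjusted p = 0.000722), the largest value of the 10 under that reading.

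EXT1 and EXT2 form the polymerase that lengthens the heparan sulfate chain. EXT1 was at -0.74, 0.21, -0.18 and -0.18 on replicates 1 to 4, with replicate 1 well below the other arrays and replicate 2 above 0. EXT2 was at -0.37, 0.54, 0.02 and 0.34, with 1 array below 0. The means were -0.22 ± 0.39 for EXT1 (limma adjusted p = 0.579) and 0.13 ± 0.40 for EXT2 (SD, n = 4 each; adjusted p = 0.693). EXT1 was at -0.083 without replicate 1, -0.125 without replicate 4 and -0.36 without replicate 3. EXT2 was at 0.035 without replicate 3, 0.083 without replicate 2 and 0.23 without replicate 1. Turned by dye, EXT1 would be at 0.24 (adjusted p = 0.116) and EXT2 at 0.31 (adjusted p = 0.0199).

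The chain modifiers NDST1, HS2ST1 and HS6ST1 had means nearest to 0. NDST1, which removes acetyl groups and adds sulfate to the exposed nitrogen, was at -0.365, 0.285, 0.185 and -0.095 on replicates 1 to 4. HS2ST1, which sulfates iduronic acid after the epimerase GLCE has acted, was at -0.035, -0.015, -0.085 and 0.21. HS6ST1, which sulfates glucosamine, was at 0.165, -0.175, 0.10 and -0.175. Each of the 3 had arrays on either side of 0, and HS6ST1 was above 0 in Cy3 and below 0 in Hy5. The means were 0.0025 ± 0.29 for NDST1, 0.018 ± 0.13 for HS2ST1 and -0.021 ± 0.18 for HS6ST1 (SD, n = 4 each; limma adjusted p = 0.994, 0.962 and 0.954). The 95% intervals of their ratios were 0.844 to 1.19, 0.903 to 1.14 and 0.887 to 1.10. From the lowest mean, the 10 genes ran GLCE, PXYLP1, EXT1, XYLT1, B3GAT3, HS6ST1, NDST1, HS2ST1, EXT2 and XYLT2. Each pair of neighbours in this order overlapped in their array values.

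Features of 1 gene did not always run together. Of the 10 genes, 4 had several features, and for HS2ST1 and HS6ST1 these moved with the dye in opposite directions. Feature 1526 of HS2ST1 was at -0.38 and -0.67 in Cy3 and at 0.57 and 0.95 in Hy5, while feature 39010 of the same annotated transcript was at 0.23 and 0.55 in Cy3 and at -0.37 and -0.49 in Hy5. Their dye coefficients were 0.64 and -0.41 (limma adjusted p over all features = 0.00173 and 0.00744), where 37.3% of all features passed. A dye coefficient is the Hy5 minus Cy3 difference of the log ratio, divided by 2. The remaining HS2ST1 features, 33103 and 44819, had coefficients of 0.175 and -0.095 and did not pass. Feature 40649 of HS6ST1 (-0.51, adjusted p = 0.00244) and feature 19505 (0.20, adjusted p = 0.127) differed in the same way. Turned by dye, features of the same HS2ST1 transcript would thus be both higher and lower in CHD6 siRNA cells. For XYLT1, feature 44931 was at -0.03, -0.27, -0.22 and -0.62 and feature 26933 at -0.13, -0.12, 0.04 and 0.11, so the low mean of the gene came mainly from the first. NDST1 had features at 0.033 and -0.028. No feature of the 8 genes passed for the mean log ratio, where 9 of 45220 features (0.0199%) did.

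**Figure D2:**
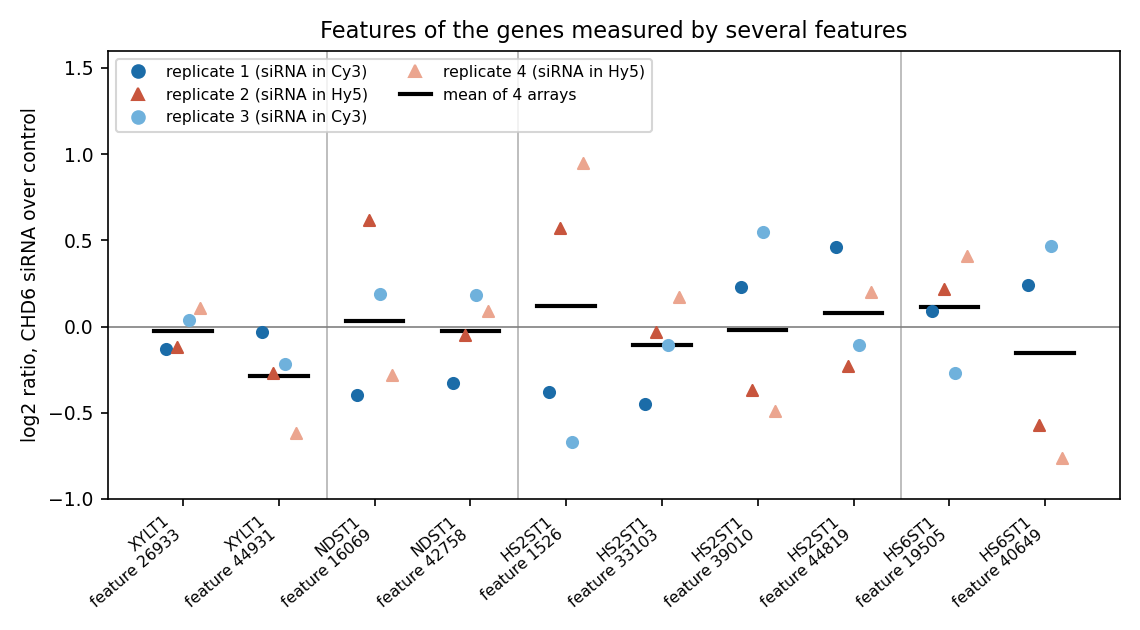
Log2 ratio (CHD6 siRNA over control, likely direction) on each array for the features of XYLT1, NDST1, HS2ST1 and HS6ST1. Circles stand for Cy3 on the siRNA sample, triangles for Hy5 on it, and bars are means of 4 arrays. For HS2ST1, the triangles of feature 1526 lie above its circles and those of feature 39010 below.

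Set by dye orientation, GLCE and PXYLP1 stood off the line along which most genes lay, a place that follows from their choice for low log ratios on all arrays. GLCE averaged -0.49 in Cy3 and -0.64 in Hy5, and PXYLP1 -0.445 and -0.465. Over all genes, the dye coefficient had an SD of 0.38 and the mean log ratio an SD of 0.12. The dye coefficient passed for 2 of the 10 genes, B3GAT3 and EXT2, both above 0, where 44.8% of all genes passed (26.9% above 0). It was -0.075 for GLCE and -0.010 for PXYLP1. Their choice for low values on all arrays keeps this coefficient nearer to 0 than the mean, so it is a description only.

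**Figure D3:**
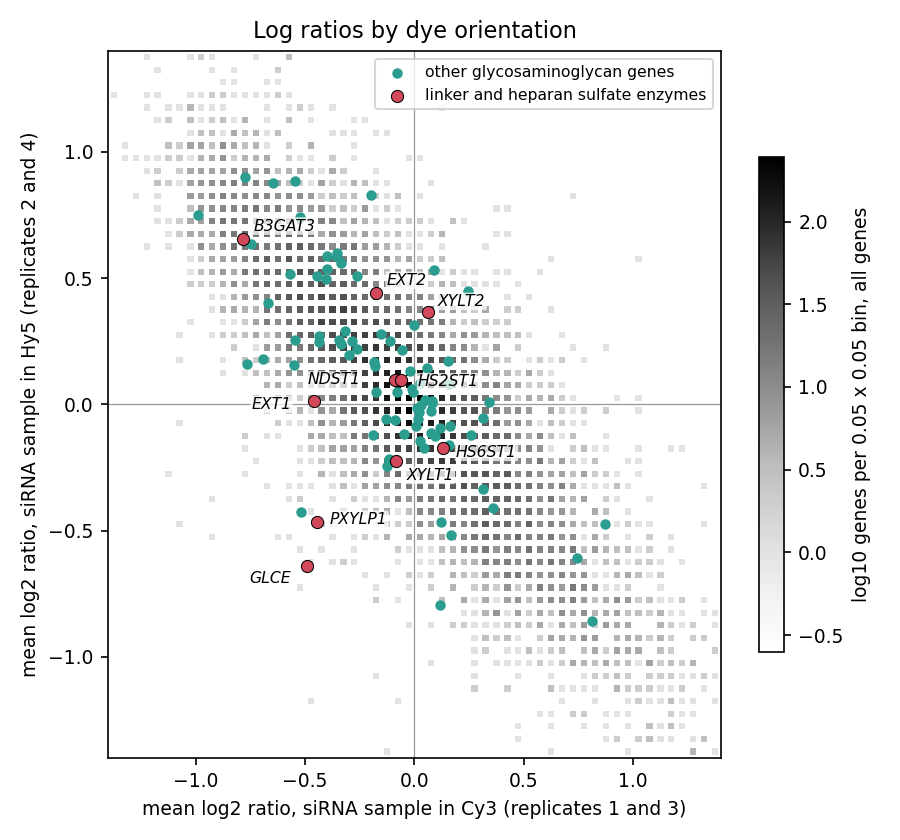
Mean log2 ratio (CHD6 siRNA over control, likely direction) with Cy3 on the siRNA sample (horizontal) against that with Hy5 on it (vertical). Grey squares count all genes per bin, with genes beyond the axis limits not drawn. GLCE (-0.49 and -0.64) and PXYLP1 (-0.445 and -0.465) lie in the lower left, off the falling band of most genes, and B3GAT3 (-0.785 and 0.655) lies on it. The place of GLCE and PXYLP1 was fixed by their selection for low log ratios.

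The rest of the glycosaminoglycan pathway gave no call. Of 85 further genes in 8 lists, 80 were measured and 0 passed in either direction. Their median log ratio was -0.0031, against -0.0025 for all genes. At an unadjusted p under 0.05, 11 of 80 (13.8%) were found, 4 higher and 7 lower, against 9.37% of all genes. Below 0 on all arrays were 3 of 80 (3.75%), and above 0 on all arrays also 3 (3.75%), close to the 3.50% and 3.56% of all genes. The other 5 are not analysed here.

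Of the other linker genes, 0 of 3 passed, and their median was -0.028. FAM20B, the kinase that places the xylose phosphate which PXYLP1 removes, was at -0.077, -0.03, -0.02 and -0.20 on replicates 1 to 4, slightly below 0 on all arrays. Its mean was -0.083 ± 0.084 (SD, n = 4; limma adjusted p = 0.776), beside -0.46 for PXYLP1. B3GALT6, a galactosyltransferase of the linker, was at -0.53 and -0.18 in Cy3 and at 0.51 and 0.69 in Hy5.

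Other enzymes of the heparan sulfate chain gave 0 of 13 calls, with a median of -0.025. EXTL2, a relative of the EXT polymerases, was at -0.09 and 0.32 in Cy3 and at -0.44 and -1.15 in Hy5 (mean -0.34, adjusted p = 0.452). HS6ST2, a relative of HS6ST1, was also lower in Hy5, with values of -0.415 and -0.62 there and 0.135 and 0.195 in Cy3.

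Chondroitin and dermatan sulfate synthesis gave 0 of 16 calls, with a median of -0.055. DSE encodes the epimerase that makes iduronic acid in dermatan sulfate, the counterpart of GLCE in that chain. It was at -0.53, -0.18, -0.51 and -0.67 on replicates 1 to 4, below 0 on all arrays and with replicate 2 nearest to 0. At -0.47 ± 0.21 (SD, n = 4; limma adjusted p = 0.175), it had the lowest mean of the 80 genes and did not pass. Turned by dye, DSE would be at 0.048. Its relative DSEL was at -0.0038, with arrays on either side of 0. CHPF2, a chondroitin polymerising factor, was at -0.02, 0.535, -0.38 and 1.12 and did not pass (adjusted p = 0.433).

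Genes that supply nucleotide sugars and the sulfate donor gave 0 of 11 calls, with a median of 0.039. SLC35B3, a transporter of the sulfate donor into the Golgi, was at 0.54, 0.25, -0.05 and 0.65 (mean 0.35, adjusted p = 0.390). SLC26A2, a sulfate transporter of the cell membrane, was at 0.01, -0.14, -0.26 and -0.345 (mean -0.18, adjusted p = 0.527). Neither passed, and each had 1 array on the other side of 0.

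Core proteins that carry heparan sulfate gave 0 of 14 calls, yet had the highest list median, 0.11, with 12 of 14 means above 0 (85.7%, against 49.1% of all genes). The glypican GPC6 was at 0.11, 0.38, 0.065 and 0.68 on replicates 1 to 4, above 0 on all arrays (mean 0.31, adjusted p = 0.274). The syndecan SDC2 was at 0.52, -0.10, 0.16 and 0.12 (adjusted p = 0.573). The list moved with the dye: its median was -0.305 and -0.37 on replicates 1 and 3 and 0.30 and 0.665 on replicates 2 and 4. The dye coefficient passed for 11 of 14, all above 0 (78.6%, against 26.9% of all genes above 0). Of these array medians, that of replicate 4 was furthest from 0. The part of dye, or of replicate 4 alone, in the list's median was not tested.

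Chondroitin sulfate core proteins gave 0 of 9 calls, with a median of -0.0088. CSPG5, a core protein of the nervous system, had a mean of -0.20 (adjusted p = 0.429), and the matrix core protein VCAN one of 0.11 (adjusted p = 0.677). Both were below 0 in Cy3 and above 0 in Hy5.

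Lysosomal enzymes that break glycosaminoglycans down gave 0 of 10 calls, with a median of -0.020 and means from -0.12 to 0.063. The sulfatase GALNS and the acetyltransferase HGSNAT, nearest to the threshold, were at -0.083 and -0.075 (adjusted p = 0.769 and 0.798). The dye coefficient passed for 8 of the 10, all above 0 (80.0%, against 26.9% of all genes above 0).

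Sulfatases that act on these chains are activated by SUMF1, which was at 0.66, 0.58, 0.60 and 0.60 on replicates 1 to 4 (mean 0.61, limma adjusted p = 0.0539) and did not pass. SUMF1 ranked 18330 from the lowest of 18334 genes. It was named with earlier results of these data known, so its p is a description only. Among its substrates, the cell surface sulfatase SULF2 was at 0.09, 0.17, 0.22 and 0.17, above 0 on all arrays (mean 0.16, adjusted p = 0.514). SULF1 was at 0.055, and the lysosomal IDS, SGSH and ARSB at -0.018, -0.12 and -0.023, each with arrays on either side of 0. Extracellular editing enzymes of heparan sulfate, SULF1 and SULF2 among them, gave 0 of 4 calls, with a median of 0.061. The enzyme HPSE, which cuts heparan sulfate, was at 0.71 and 0.78 in Cy3 and at -0.555 and -0.665 in Hy5.

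**Figure D4:**
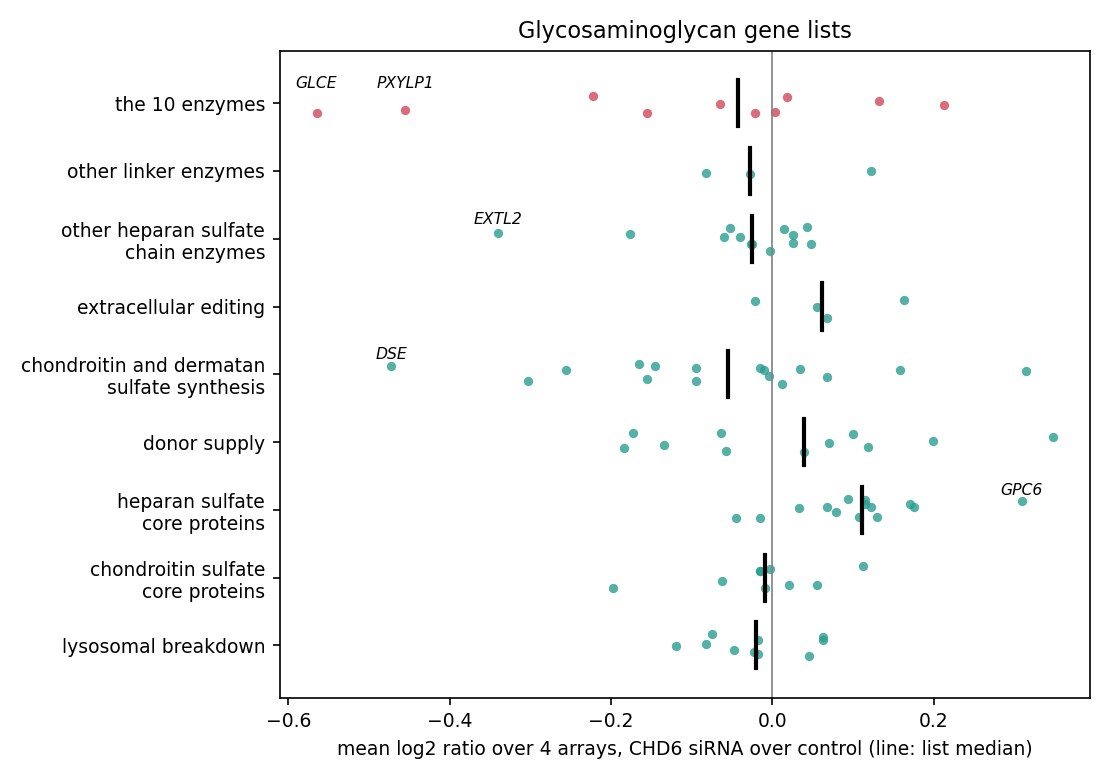
Mean log2 ratio over 4 arrays (CHD6 siRNA over control, likely direction) of each gene in the 10 enzymes and the 8 further lists. Each point is 1 gene, its height within a list has no meaning, and black lines are list medians. GLCE (-0.57), DSE (-0.47) and PXYLP1 (-0.46) are the lowest genes, and the heparan sulfate core proteins have the highest median (0.11). GLCE and PXYLP1 were chosen for low log ratios, which fixed their low place. DSE was named because its p was among the smallest of its list.

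The genes most like GLCE over the 4 arrays, by the root mean square difference of their log ratios, were RIMKLA (0.064), PPP3CB (0.143), CHD6 (0.145), BICRAL (0.151) and DNAAF4 (0.172). Those most like PXYLP1 were PPCS (0.060), ATR (0.093), CHD6 (0.097), COQ3 (0.0999) and CNOT11 (0.112). CHD6, as a mean of 3 features that differed widely, was the third in either list. These features were at -1.15, -0.015 and -0.17, none of them near the mean of GLCE or PXYLP1. The closest match of GLCE, RIMKLA, was at -0.61, -0.395, -0.405 and -0.75, and that of PXYLP1, PPCS, at -0.415, -0.445, -0.485 and -0.485. All of these genes were below 0 on every array, as a small difference from GLCE or PXYLP1 requires.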

How the data were processed

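Two-colour Agilent arrays measured RNA of HEK293T cells. Per the labels' protocols, RNA was amplified from 200 ng by T7 transcription and labelled with cyanine CTP. The authors deposited 1 column of log ratios per array, taken here as log2, with medians of -0.02, 0.03, -0.02 and 0.02 on replicates 1 to 4. For scale, centring, direction, background correction and normalization the sources used here give nothing. Without channel intensities, signal over background is unknown, and precision is limited by the number of arrays. No column was left out (0 unused).

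Gene names came from the probe annotation of the platform, with symbols brought up to date from RefSeq by Entrez identifier (31291 features matched). The 31332 features that name 1 gene were averaged per gene, leaving out 93 that name several and 13795 unnamed here. Genes were fitted with limma 3.58.1 in R 4.3.3 (lmFit, eBayes) with an intercept and dye orientation, and p-values were adjusted by Benjamini-Hochberg over all 18334 genes. Features were fitted in the same way over all 45220. The fit was tested on simulated data. Alternatives were no dye coefficient, arrays turned by dye, the median over features, columns centred and scaled, quantile normalization and leaving out each array. Leaving out an array kept the dye coefficient in the fit. For 4 arrays the smallest two-sided p of an exact sign-flip test is 0.125.

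The members and lists were chosen with earlier results of these data known. Named were the 10 members, CHD6, per list any called genes or else the 2 with the smallest p, the 5 genes most like GLCE and PXYLP1 (uncharacterised loci skipped), and SUMF1 with its glycosaminoglycan sulfatases. DSEL, the member features and the promoters were chosen after their values were seen. Motifs were searched as exact letters.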

Additional observations from a re-analysis of the deposited data

How the results depend on the processing

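None of the 8 members taken for function was called with no dye coefficient, with the median over features, with columns centred and scaled, with quantile normalization or without any 1 replicate. Turned by dye, 2 of them would be called (EXT2 at 0.31 and B3GAT3 at 0.72), as would 40 of the 80 further genes, where 8219 of all genes (44.8%) would be. Of the 14 features of these 8 members, 5 would be called, where 16860 of 45220 features (37.3%) would be. GLCE and PXYLP1 would then be at -0.075 and -0.010, and EXT1 at 0.24. The number of genes called over the array was 4 as reported, 0 with no dye coefficient, 8 with the median over features, 9 with columns centred and scaled, 8 with quantile normalization and 0 without any 1 replicate. HS2ST1 was at -0.033 with the median over its features. Without 1 replicate, B3GAT3 lay between -0.17 and 0.043, NDST1 between -0.135 and 0.14 and HS2ST1 between -0.038 and 0.074. The dye coefficient passed for 2 of the 10 members as reported and with the median over features, for 3 with columns centred and scaled and 3 with quantile normalization, and for 1 to 2 without 1 replicate (1 without replicate 1, 2 or 4). GLCE lay between -0.66 and -0.48 and PXYLP1 between -0.50 and -0.41 without 1 replicate. No separate paired analysis was made, because each log ratio already pairs both conditions within 1 array and the arrays form 1 group.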
